A study of Saccharomyces cerevisiae with 8 samples.

Results

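The genes described here encode the budding yeast proteasome and its transcriptional activator. They are 33 rows of a table of 6547 features, chosen by name from what the genes are known to encode. There are 14 genes of the core particle, 9 of the base, 8 of the lid, the deubiquitinase gene UBP6 and the activator gene RPN4. All 33 were found and all passed the filter on low values, which kept 6504 features. The 32 genes other than RPN4 are called the subunit genes below.

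Libraries of messenger RNA were made from wild-type Saccharomyces cerevisiae (WT, strain WFA72) and from a mec1 strain (WFA73), with 1 library per strain and time and no replicates. MEC1 encodes the checkpoint kinase that answers stalled DNA replication, and the labels give no allele for the mutant. Cells of each strain were held by alpha factor (G1), then kept in 200 mM hydroxyurea for 1 h (HU), then freed of the drug by filtration and sampled after 30 min (R30) and 60 min (R60). Hydroxyurea blocks ribonucleotide reductase and so starves replication of its precursors. Both strains received alpha factor and the drug, and no untreated culture at matched times was analysed here.

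The proteasome degrades proteins tagged with ubiquitin. Its core particle is a stack of alpha rings, which gate the entrance, and beta rings, which hold the proteolytic sites. The regulatory particle caps the core: the ATPases of the base unfold the substrate, other base subunits include ubiquitin receptors, and the lid removes ubiquitin. In yeast the subunit genes are switched on together by Rpn4, which binds a promoter element named PACE (proteasome associated control element). Rpn4 is itself a very short-lived substrate of the proteasome, so its protein level need not follow its mRNA.

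Promoters were searched from 250 bases before to 50 after the start codon, in the RefSeq sequence of assembly R64, on either strand. The 9 bases of PACE, GGTGGCAAA, were present in 27 of the 32 subunit promoters (84.4%) and in 72 of 6001 promoters of the genome (1.2%). The promoters of PRE5, PUP1, RPN8, RPN10 and UBP6 had no exact match, nor did that of RPN4. The form without the last base was in the same number of subunit promoters and in 1.68% of all promoters. Allowing 1 base to differ, a search added after the exact matches were seen, a match was present in all 32 subunit promoters and in 7.57% of all promoters. The stretch was AGTGGCAAA in PRE5, PUP1, RPN8 and UBP6, and GGTGGCGAA in RPN10.

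The exact matches began 84 to 183 bases upstream of the start codon (median 120), 19 on the strand of the gene and 8 on the other. The following promoters are shown because the results turn on these genes. Each is written from 5′ to 3′ on the strand of its gene, and capitals mark PACE in RPT2, PRE1 and PUP2, the stretch that differs by 1 base in PRE5 and UBP6 (on the other strand in UBP6), and the heat shock unit in RPN4.
RPT2, chrIV:437797-438096 (plus strand): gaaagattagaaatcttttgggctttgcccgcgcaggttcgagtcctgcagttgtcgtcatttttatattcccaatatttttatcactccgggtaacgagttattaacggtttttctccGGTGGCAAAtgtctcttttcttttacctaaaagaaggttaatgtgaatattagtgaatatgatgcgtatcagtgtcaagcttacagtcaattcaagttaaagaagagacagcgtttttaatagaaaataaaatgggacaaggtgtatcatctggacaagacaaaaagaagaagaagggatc
PRE1, chrV:177585-177884 (plus strand): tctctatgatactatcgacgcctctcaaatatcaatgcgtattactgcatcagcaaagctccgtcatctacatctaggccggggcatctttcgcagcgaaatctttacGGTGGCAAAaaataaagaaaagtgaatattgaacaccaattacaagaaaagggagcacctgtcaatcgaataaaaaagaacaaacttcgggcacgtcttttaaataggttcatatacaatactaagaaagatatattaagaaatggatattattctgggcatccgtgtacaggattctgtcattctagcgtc
PUP2, chrVII:999091-999390 (minus strand): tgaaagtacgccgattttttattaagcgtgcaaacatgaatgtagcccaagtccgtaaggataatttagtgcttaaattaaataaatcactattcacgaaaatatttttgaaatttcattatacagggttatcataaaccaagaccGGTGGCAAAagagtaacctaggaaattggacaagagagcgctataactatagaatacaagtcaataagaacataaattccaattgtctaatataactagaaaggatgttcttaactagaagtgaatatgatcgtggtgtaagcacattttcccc
PRE5, chrXIII:901459-901758 (plus strand): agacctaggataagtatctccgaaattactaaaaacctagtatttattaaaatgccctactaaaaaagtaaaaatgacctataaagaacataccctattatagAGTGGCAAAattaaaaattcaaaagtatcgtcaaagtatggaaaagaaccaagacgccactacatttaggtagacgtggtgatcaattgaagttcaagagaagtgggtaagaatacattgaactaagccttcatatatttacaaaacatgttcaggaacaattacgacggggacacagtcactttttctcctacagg
UBP6, chrVI:164817-165116 (plus strand): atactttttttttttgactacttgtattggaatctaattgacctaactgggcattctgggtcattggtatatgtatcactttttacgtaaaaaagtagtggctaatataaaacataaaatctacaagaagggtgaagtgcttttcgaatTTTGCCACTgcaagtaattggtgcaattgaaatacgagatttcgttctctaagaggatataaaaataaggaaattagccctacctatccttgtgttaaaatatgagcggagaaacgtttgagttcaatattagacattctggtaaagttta
RPN4, chrIV:416659-416958 (minus strand): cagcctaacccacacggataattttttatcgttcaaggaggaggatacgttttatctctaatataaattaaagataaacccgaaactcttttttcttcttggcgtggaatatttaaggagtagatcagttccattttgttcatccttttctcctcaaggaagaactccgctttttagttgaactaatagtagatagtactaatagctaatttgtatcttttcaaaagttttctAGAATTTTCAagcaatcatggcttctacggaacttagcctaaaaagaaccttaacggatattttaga
Binding motifs of 2 kinds of regulators of RPN4 were looked for in its promoter: TTACTAA for Yap1, and TCCGCGGA and TCCACGGA for Pdr1 and Pdr3. No match to these 3 motifs lay in this window, and they were present in 7.45%, 0.217% and 0.4% of all promoters. Sites more than 250 bases upstream of the start codon were not searched, so their absence from the RPN4 promoter as a whole is not shown. A heat shock element unit, GAA and TTC spaced by 2 bases, lay in the RPN4 window and in 11.7% of all promoters. A match describes the letters only, and it is no evidence of binding in these cells.

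**Figure D1:**
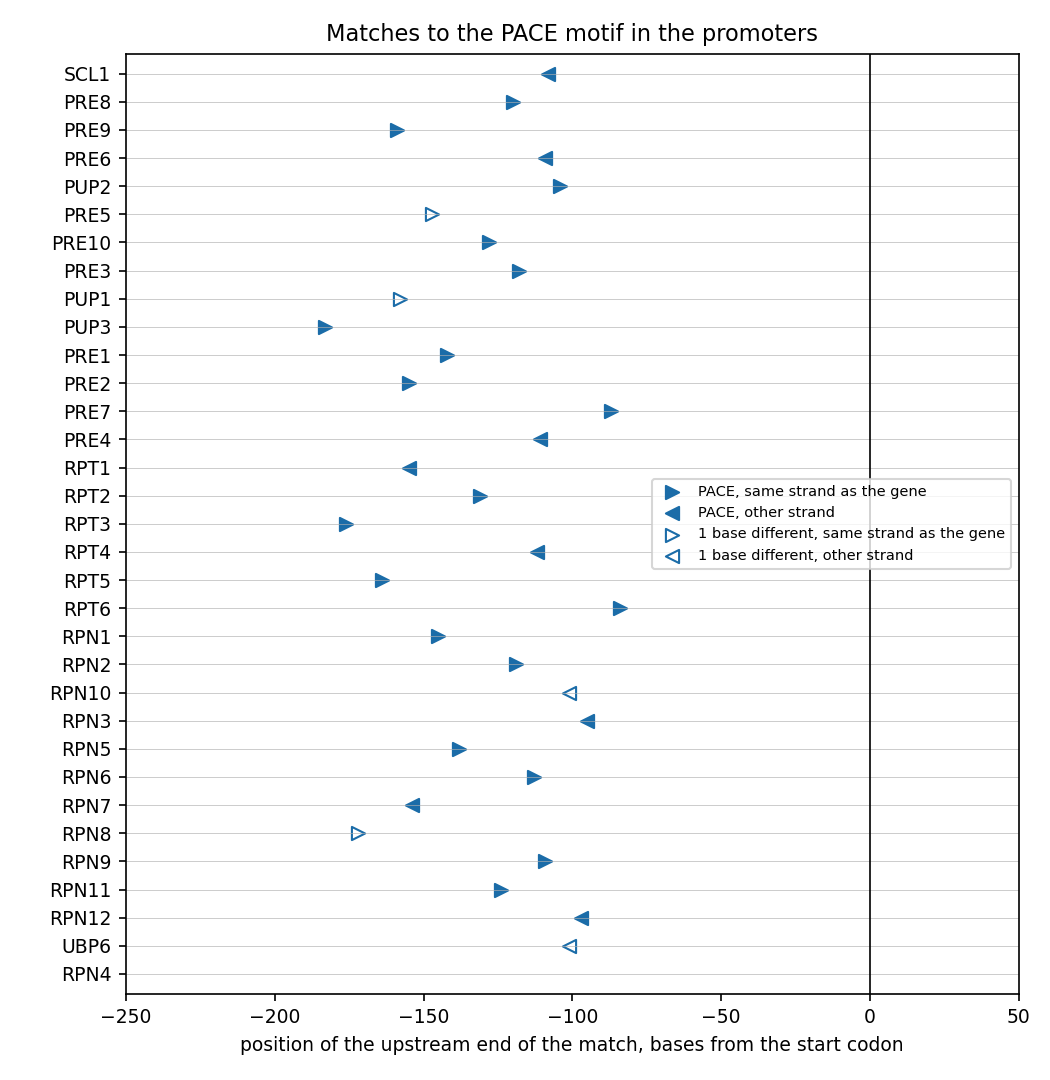
Positions of PACE in the promoters of the 33 genes, in bases from the start codon. Filled triangles mark exact matches (27 genes) and open triangles the stretches with 1 base different in the 5 genes that lack an exact match; a triangle pointing right lies on the strand of the gene. RPN4 has neither.

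The deposited values are reads scaled to a common library total (RPM) averaged over windows that cover a gene, 1000 bp on either side of it, and any neighbour's window that reaches into it. They are shares of a library, so more of a transcript per cell and less of other RNA cannot be told apart. They are not divided by gene length, and part of each value belongs to neighbours. By a least-squares separation of the windows, the gene itself supplied a median of 56.3% (PRE6, beside the ribosomal protein gene RPP2A) to 98.4% (PRE1) of the value. The share was 94.7% for RPT2, 82.3% for UBP6 and 94.5% for RPN4. The 8 libraries rested on 1596132 (WT HU) to 3935979 (mec1 G1) reads, and the lowest mean number of reads per window of any member was 134.8, for RPN4 in WT HU. Intervals below are nominal 95% counting intervals that take the mean number of reads per window as the count. The windows of a gene together hold more reads than this mean, so the intervals can be wider than counting error alone. Their actual coverage was not tested. They concern counting error only and not the spread between cultures.

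The feature of MEC1 was at 35.7 to 90.3 RPM in WT and 76.6 to 124 RPM in the libraries labelled mec1. With neighbours separated it was at 39.9 to 45.6 in WT and 119 to 134 in mec1, as RPM per gene, so the gene named in the genotype was higher, not lower, in the libraries labelled mec1. How well the separation resolves this gene was not tested. The allele is not given, so what its mRNA should do is not known here, and every direction below is that of the libraries as labelled. SML1, which encodes an inhibitor of ribonucleotide reductase, was at 245 to 845 RPM in WT and 21.3 to 65.5 RPM in mec1. The genotype label does not mention this gene, and whether the gene itself differs between the strains was not tested. HUG1, a target of the checkpoint, was at 76.6 RPM in G1 and 445 RPM in HU in WT, against 7.67 and 37.7 RPM in mec1. RNR2, which encodes a subunit of ribonucleotide reductase, reached 2069 RPM in hydroxyurea in WT and 310 RPM in mec1. The pheromone-induced gene AGA1 was at 1291 and 1076 RPM in the G1 libraries of WT and mec1, and at 45.9 to 84.5 RPM in the other 6 libraries. The receptor gene of a cells, STE2, was at 199 to 864 RPM and that of alpha cells, STE3, at 3.37 to 10.9 RPM.

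In WT the subunit genes were higher in hydroxyurea and after 30 min of recovery than in G1, and back near their G1 level after 60 min. In mec1 they were higher in hydroxyurea by a similar amount, higher still after 30 min, and remained there at 60 min. The strains therefore stood furthest apart at R60, where all 32 subunit genes were higher in mec1. The mRNA of RPN4 was below G1 at all 3 later times in WT and above G1 at all 3 in mec1. Among the subunit genes UBP6 had the same signs, but its WT R30 difference was only −0.04. With neighbours separated that UBP6 difference was 0.21, while RPN4 kept its signs. None of the 33 genes passed the test that pools the strains or the times, and differences between single libraries have no replicate check.

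**Figure D2:**
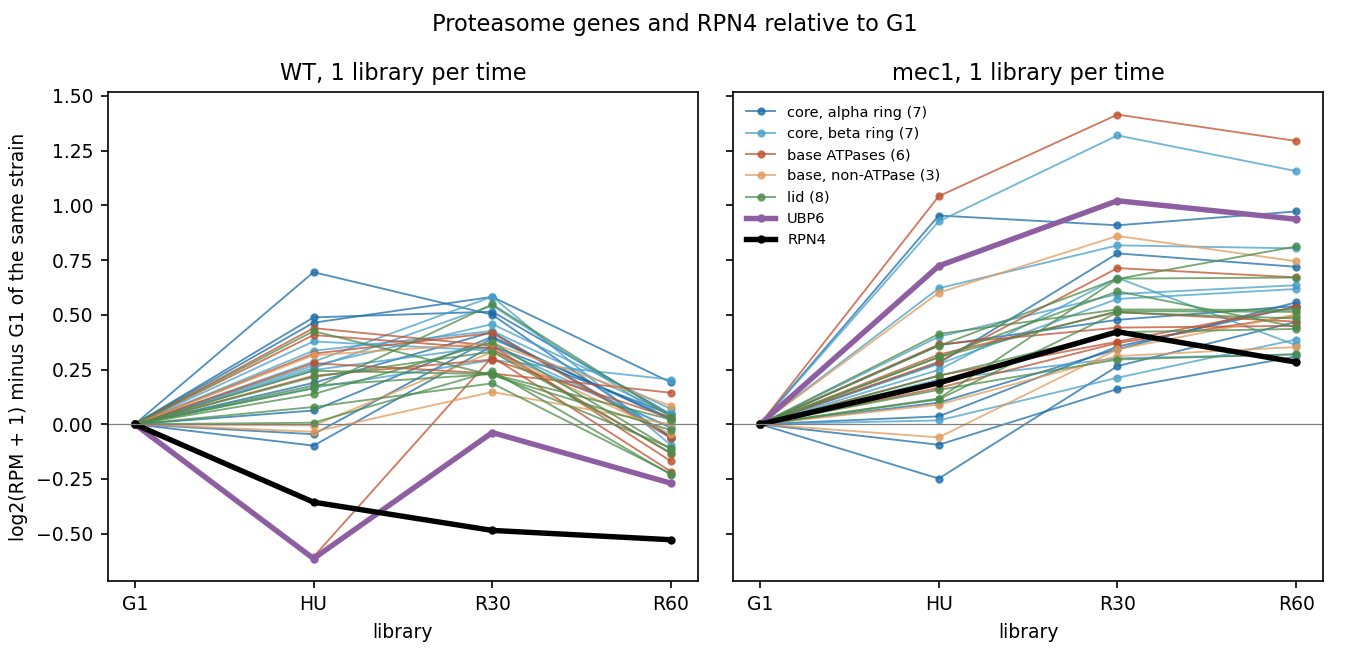
log2(RPM + 1) of each gene minus its own G1 value in the same strain, WT on the left and mec1 on the right, with 1 library per point. In WT the subunit genes other than UBP6 peak at HU or R30, and at R60 the 32 lie between −0.27 (UBP6) and 0.20, with RPN4 below them at −0.53; in mec1 all 33 genes lie above 0 at R30 and R60.

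RPN4, the activator, was at 108, 84.5, 77.1 and 74.9 RPM in WT at G1, HU, R30 and R60. In mec1 it was at 103, 118, 139 and 126 RPM. The strains were close in G1, and the 3 later mec1 libraries were all above every WT library. On the scale log2(RPM + 1), used for all differences below, the WT values differed from G1 by −0.36 in HU (interval −0.66 to −0.06), −0.49 at R30 (−0.78 to −0.19) and −0.53 at R60 (−0.78 to −0.27). In mec1 the differences from G1 were 0.19 in HU (−0.02 to 0.40), 0.42 at R30 (0.21 to 0.63) and 0.28 at R60 (0.09 to 0.48). The mec1 library was 1.79 times the WT library at R30, a difference of 0.84 (0.55 to 1.12). With neighbours separated, the WT differences from G1 were −0.68, −0.51 and −0.53, and those in mec1 were 0.11, 0.35 and 0.21.

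The median value of the 32 subunit genes was 162, 205, 218 and 160 RPM in WT at G1, HU, R30 and R60, and 193, 239, 288 and 293 RPM in mec1. The medians of WT at G1 and R60 were alike, and those of mec1 R30 and R60 were above all the others. In WT HU, 26 of the 32 were above their G1 value (median difference 0.23), where 45.1% of all features tested were above theirs. At WT R30 the number was 31 (median 0.36, background 46.6%), and at WT R60 it was 14 (median −0.02, background 46.5%). In mec1 the numbers were 29 in HU (median 0.28, background 50%), 32 at R30 (0.51, 52.5%) and 32 at R60 (0.53, 53.4%). The medians of all features in these 2 strains at R30 and R60 lay between −0.02 and 0.04.

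Between R30 and R60 all 32 subunit genes were lower in WT, by 0.09 (RPT4) to 0.68 (PUP1), with a median difference of −0.38. In mec1 the same step gave 19 higher and 13 lower, with a median of 0.02. About equal shares of all features were higher at this step, 50.6% in WT and 50.8% in mec1. R30 was the highest WT library for 24 of 32 subunit genes (75%), against 20.9% of all features. For 7 it was HU, for UBP6 it was G1, and for none was it R60. With neighbours separated, R30 was the highest WT library for PRE5, PRE4, RPN5 and UBP6 too. In mec1 the highest library was R60 for 19 (59.4%, against 23.8% of all features) and R30 for 13 (40.6%, against 19.4%). For 19 subunit genes WT R30 was the highest WT library and WT R60 was also below WT HU, a pattern that 7.69% of all features showed.

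The core particle genes of the alpha ring were above G1 at R30 by a median of 0.42 in WT and 0.35 in mec1, and at R60 by 0.03 and 0.54. PRE5, an alpha ring subunit gene, had the largest difference from G1 to HU of any member in the fit of the deposited values over both strains. It was at 201, 327, 285 and 193 RPM in WT against 224, 436, 422 and 441 in mec1. In the deposited values HU was its highest library in WT, while the 3 later mec1 libraries were nearly level and above all 4 of WT. With neighbours separated, PRE5 was at 317, 425, 471 and 313 in WT against 364, 612, 687 and 736 in mec1. R30 was then its highest WT library, and its mec1 values rose at each time. Its differences from G1 to HU were then 0.42 in WT and 0.75 in mec1, against 0.26 and 0.94 for PRE1. PUP2, also of the alpha ring, had the smallest fitted difference, with 151, 146, 199 and 154 RPM in WT against 157, 132, 189 and 218 in mec1. Only its mec1 R60 library was above all of WT. PRE6, which supplied the smallest share of its own value, was at 405, 379, 520 and 418 RPM in WT against 430, 403, 481 and 533 in mec1.

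The beta ring genes were above G1 at R30 by a median of 0.43 in WT and 0.59 in mec1, and at R60 by 0.01 and 0.62. PRE1, a beta ring subunit without proteolytic activity, was at 147, 176, 215 and 149 RPM in WT against 171, 326, 428 and 382 in mec1. All 3 later mec1 libraries were well above every WT library, and at R60 the mec1 value was 2.56 times that of WT (difference 1.35). PUP3, another beta ring gene, was at 216, 243, 265 and 249 RPM in WT against 261, 402, 460 and 456 in mec1, with the same separation. PRE7, with the smallest HU difference of the ring, was at 164, 208, 221 and 170 RPM in WT against 196, 199, 228 and 257 in mec1. Only its R30 and R60 mec1 libraries were above all of WT.

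The proteolytic sites of the core are carried by the products of PRE3, PUP1 and PRE2. PRE3 was at 175, 211, 241 and 184 RPM in WT against 217, 286, 328 and 337 in mec1. PUP1 was at 89.8, 110, 135 and 84.0 RPM in WT against 96.2, 114, 153 and 124 in mec1. PRE2 was at 275, 326, 352 and 272 RPM in WT against 300, 345, 369 and 374 in mec1. The later mec1 libraries stood above all WT libraries for PRE3, and overlapped with them for PUP1 and PRE2.

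The base ATPase genes were above G1 at R30 by a median of 0.33 in WT and 0.48 in mec1, and at R60 by −0.10 and 0.52. RPT2 departed most from the others. It was at 160, 105, 199 and 138 RPM in WT against 177, 365, 473 and 435 in mec1. In WT it was lowest in HU, while in mec1 HU it was 2.06 times its G1 value. The difference from G1 to HU was −0.61 in WT (−0.87 to −0.34) and 1.04 in mec1 (0.90 to 1.18). At HU the mec1 library was 3.45 times the WT library. RPT3, with the largest fitted HU difference among the ATPases, was at 153, 203, 194 and 139 RPM in WT against 175, 226, 238 and 240 in mec1.

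Among the other base genes, RPN2, which encodes a scaffold subunit, was at 232, 227, 257 and 232 RPM in WT against 243, 369, 442 and 408 in mec1. The 4 WT libraries and mec1 G1 lay close together, and the 3 later mec1 libraries lay apart from them. RPN1, the scaffold that binds ubiquitin and Ubp6, was at 196, 244, 254 and 208 RPM in WT against 225, 239, 279 and 287 in mec1. RPN10, a ubiquitin receptor gene, was at 151, 150, 190 and 146 RPM in WT against 156, 150, 198 and 221 in mec1. For both, the R30 and R60 libraries of mec1 were above all of WT, and HU was not.

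The lid genes were above G1 at R30 by a median of 0.24 in WT and 0.52 in mec1, and at R60 by −0.11 and 0.50. RPN6, a lid subunit that clamps the lid to the core, had the largest fitted HU difference of the lid. It was at 142, 191, 166 and 139 RPM in WT against 145, 194, 210 and 209 in mec1, with HU as the highest WT library. RPN12, whose product joins the lid last in assembly, had the smallest, with 131, 145, 171 and 121 RPM in WT against 135, 147, 215 and 238 in mec1. RPN11, the deubiquitinase of the lid, was at 148, 149, 175 and 126 RPM in WT against 167, 207, 240 and 239 in mec1. The 3 later mec1 libraries were above all of WT for RPN11 and, by a narrow margin in HU, for RPN6, while RPN12 overlapped in HU. With neighbours separated RPN6 overlapped too, at 359 in mec1 HU and 392 in WT HU.

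UBP6, whose product trims ubiquitin chains on the proteasome, was at 137, 89.5, 134 and 114 RPM in WT against 148, 244, 301 and 284 in mec1. Like RPT2, it was lowest in HU among the WT libraries, and the 3 later mec1 libraries were far above all WT libraries. The difference from G1 to HU was −0.61 in WT (−0.90 to −0.33) and 0.72 in mec1 (0.56 to 0.88). With neighbours separated, these differences were −0.60 and 0.91 for UBP6, and −0.60 and 1.08 for RPT2.

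**Figure D3:**
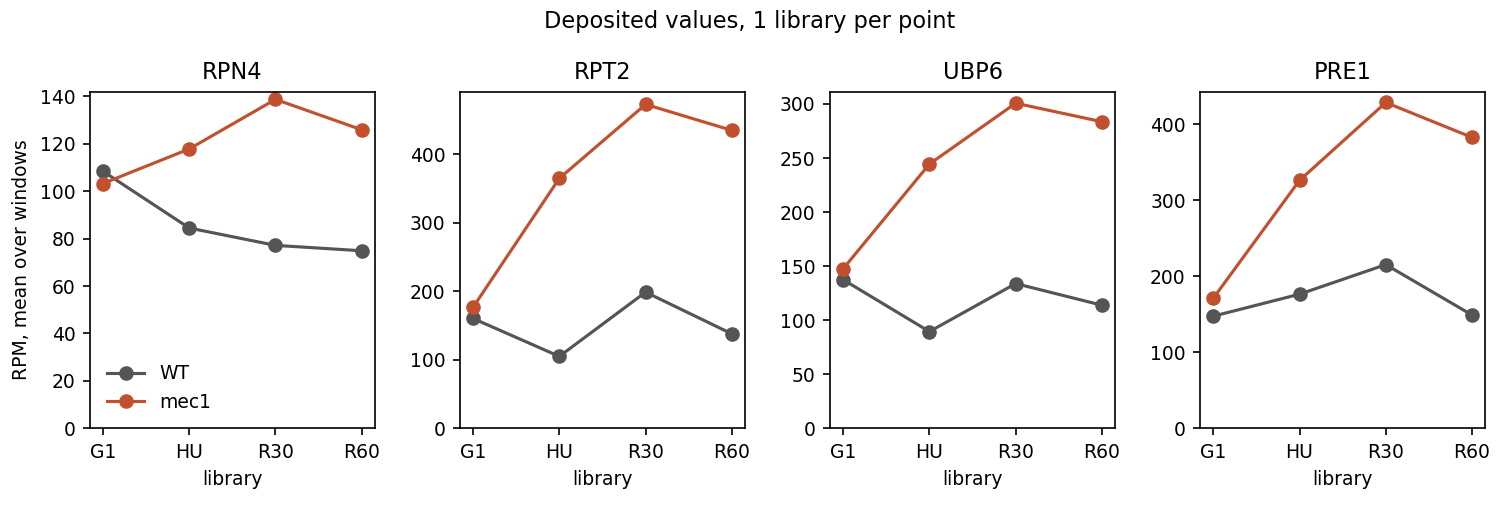
Deposited values of RPN4, RPT2, UBP6 and PRE1 in RPM (mean over windows, vertical axes from 0) at the 4 times, WT in grey and mec1 in orange, with 1 library per point. In each panel the G1 values of the strains are close and the 3 later mec1 libraries lie above every WT library.

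Levels can be compared between genes only per length. In neighbour-separated RPM per kb in WT G1, the median was 450 for the alpha ring, 496 for the beta ring, 292 for the base ATPases, 201 for the other base genes and 250 for the lid. The subunit genes ran from 132 (RPN1) to 611 (PUP3), with UBP6 at 182 and RPN4 at 218. The medians of both core rings were above those of the base and the lid on this scale.

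The step from G1 to HU was set side by side for the strains. The strain difference of that step (the mec1 difference minus the WT difference) was positive for 14 and negative for 18 subunit genes, with a median of −0.03. The 3 most positive were RPT2 (1.65), UBP6 (1.34) and PRE1 (0.67), and the 3 most negative were PRE7 (−0.32), RPN1 (−0.23) and PUP2 (−0.20). Among all features 50.8% had a positive strain difference. RPT2 and UBP6 were the only subunit genes with 1 or more, as had 4.89% of all features. RPN4, at 0.54 (interval 0.18 to 0.91), lay with the genes that differed towards mec1.

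**Figure D4:**
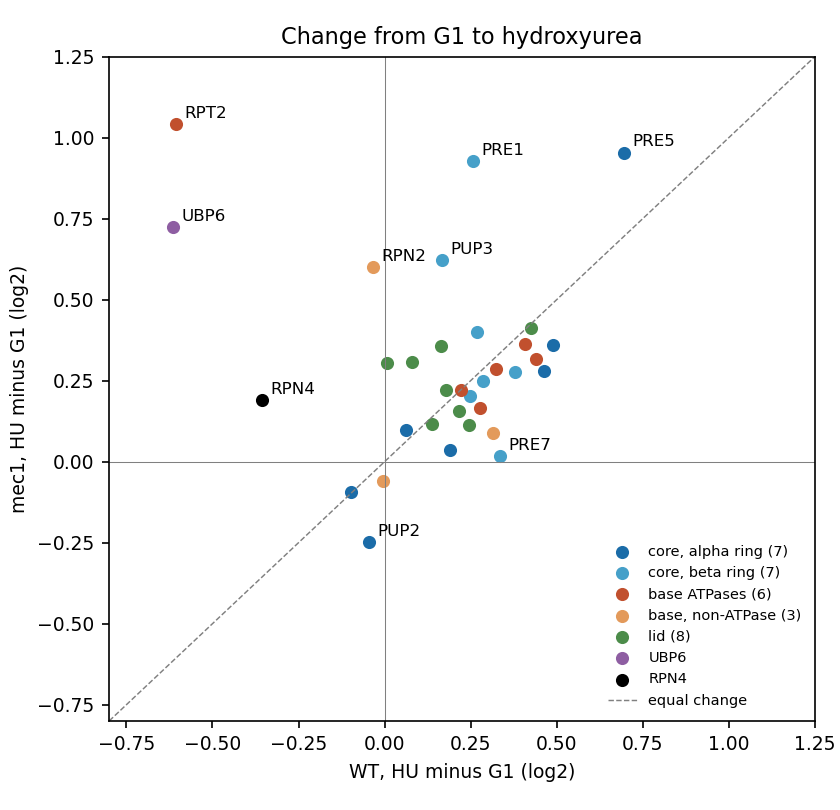
Difference of log2(RPM + 1) from G1 to HU in WT (horizontal axis) and in mec1 (vertical axis), 1 point per gene, coloured by role; the dashed line marks equal differences. Most subunit genes lie near the line, while RPT2, UBP6, RPN4 and, narrowly in WT, RPN2 lie below 0 in WT and above 0 in mec1.

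In the comparison of the strains at matched times, the subunit genes were higher in mec1 by a median of 0.16 in G1 (32 of 32, background 62.8% of all features), 0.14 in HU (26, 57.3%), 0.33 at R30 (30, 63.5%) and 0.75 at R60 (32, 61%). The medians of all features were 0.06, 0.06, 0.13 and 0.10. With the library medians set equal, the subunit medians were 0.08 (26 of 32 higher), 0.01 (17), 0.20 (26) and 0.62 (32), so the differences in G1 and HU were small enough to depend on the scaling. At R60 the range was 0.35 (PRE6) to 1.65 (RPT2), and the role medians were 0.70 for the alpha ring, 0.80 for the beta ring, 0.79 for the ATPases, 0.59 for the other base genes and 0.72 for the lid. With neighbours separated the range was 0.53 (RPN8) to 1.70 (RPT2), with PRE6 at 0.78. In the deposited values at R60, PRE5, PRE1, RPT2 and UBP6 were higher by 1 or more, as were 3.51% of all features. RPN4 was higher by 0.74 at R60 (0.51 to 0.97).

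**Figure D5:**
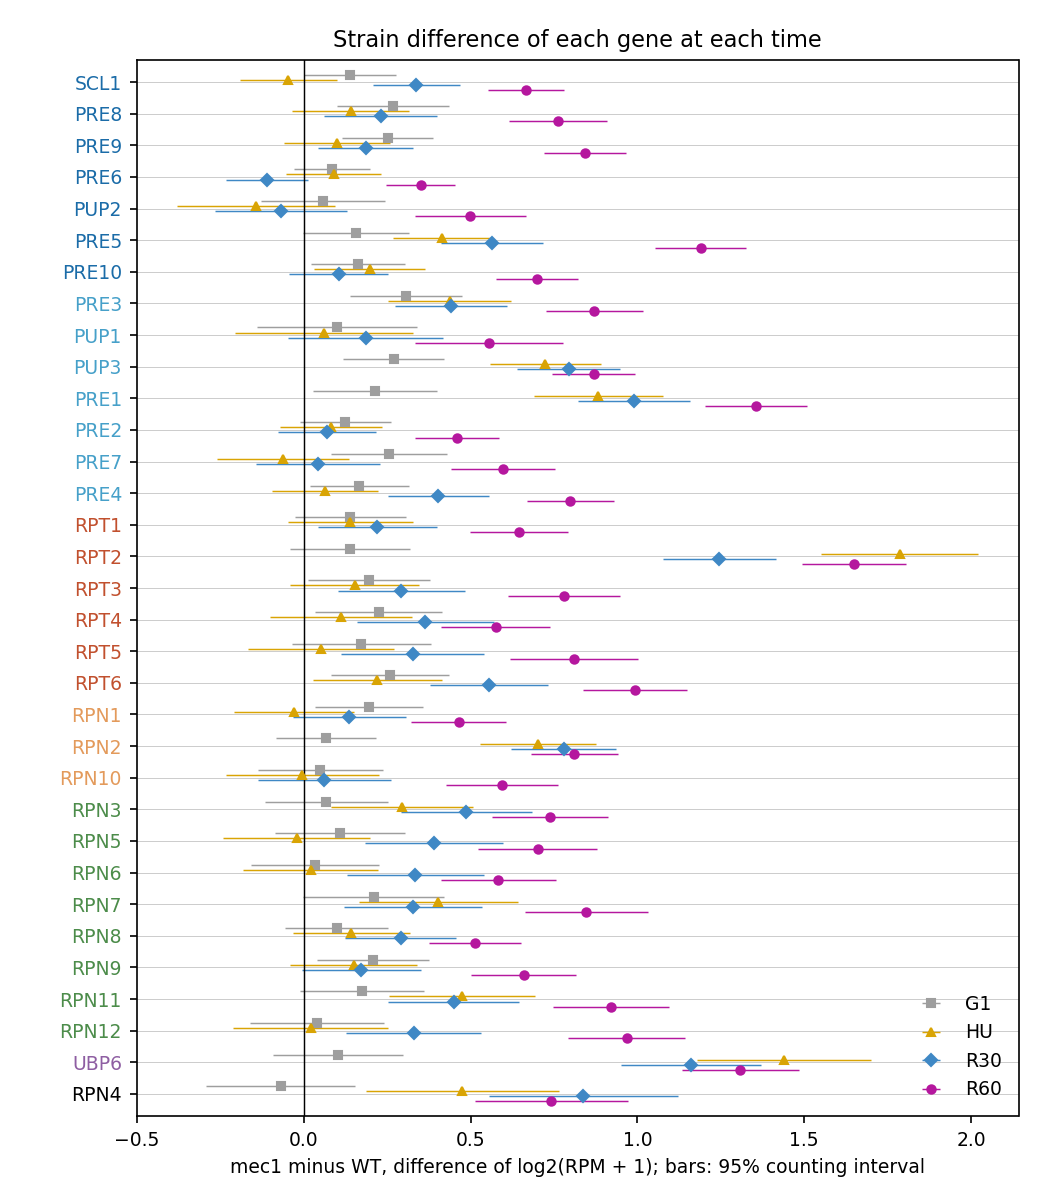
mec1 minus WT difference of log2(RPM + 1) for each gene at G1 (squares), HU (triangles), R30 (diamonds) and R60 (circles); bars are 95% counting intervals and cover counting error only. At R60 all 33 genes lie to the right of 0, from 0.35 (PRE6) to 1.65 (RPT2), while G1 values lie between −0.07 (RPN4) and 0.30 (PRE3). These are deposited values, and with neighbours separated PRE6 was at 0.78 at R60.

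The lowest of the 3 later mec1 libraries was above the highest of the 3 later WT libraries for 20 of 32 subunit genes and for RPN4, against 22.3% of all features. The mec1 R30 and R60 libraries were both above all 4 WT libraries for 29 subunit genes and RPN4, against 29.6%. The exceptions were PRE6, PUP2 and PUP1. mec1 was above WT at all 4 times for 25 subunit genes (25.7% of all features), and RPN4 was not among them because of G1. All later mec1 libraries were above mec1 G1 for 29 (37.4%), and all later WT libraries above WT G1 for 12 (24.4%). These counts are of the deposited values. With neighbours separated, PRE6 was at 647 and 773 in mec1 R30 and R60, above its highest WT library, R30, at 628. RPN6 and RPN7 then lost the first pattern of this paragraph, while PRE2 and RPN5 showed it by narrow margins.

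Strain and time were fitted together as additive terms across all 6504 features with limma, with Benjamini-Hochberg adjustment and calls under 0.05. With 1 library per strain and time, its p-values weigh a shared difference against how unevenly strains and times moved. No member was called in any of 6 contrasts. The shares of all features called were 9.09% for HU minus G1, 0.861% for R30 minus HU, 0.953% for R60 minus HU, 0% for R60 minus R30, 1.58% for R60 minus G1 and 0.277% for mec1 minus WT. The members with an unadjusted p under 0.05 numbered 5, 2, 0, 1, 2 and 22 of 33 in this order. Among all 6504 features the numbers were 2027, 1090, 1093, 261, 1285 and 1758.

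For HU minus G1, the subunit genes had a median fitted difference of 0.22 (29 positive, 3 negative), against −0.02 for all features. On the deposited values the smallest adjusted p of a member from limma was that of PRE5, 0.0699, with a difference of 0.82 (SE 0.23). For mec1 minus WT, all 32 subunit genes had a positive difference (median 0.34, against 0.08 for all features), and the smallest adjusted p of a member was 0.0996. That median was 0.18 without the R60 libraries and 0.22 with the library medians set equal. RPN4 had a fitted difference of −0.08 for HU minus G1 (adjusted p = 0.83, limma) and 0.50 for mec1 minus WT (adjusted p = 0.12, limma).

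Without the G1 libraries the mec1 minus WT contrast called 669 features (10.3%), and 544 of them (8.36%) were higher in mec1. It called 8 of the 33 members, all higher in mec1. They were RPT2 by 1.56 (SE 0.13), UBP6 by 1.30 (SE 0.10), PRE1 by 1.08 (SE 0.12), PUP3 by 0.80 (SE 0.10), RPN2 by 0.76 (SE 0.09), RPN4 by 0.68 (SE 0.12), RPN11 by 0.61 (SE 0.13) and PRE3 by 0.58 (SE 0.13). Their adjusted p-values by limma ran from 0.00920 (UBP6) to 0.0436 (PRE3). This was the only 1 of 4 fits leaving out a time that called a member. With neighbours separated as well, 1 feature and no member was called, and the adjusted p of these 8 was 0.0618 to 0.127. Their differences in that fit were about as large, from 0.60 (RPN11) and 0.73 (RPN4) to 1.42 (UBP6) and 1.59 (RPT2).

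Of the other genes of the pathway, 15 encode remaining subunits and assembly factors. At R60 they were higher in mec1 by a median of 0.53 (13 of 15, against 61% of all features). With all libraries none passed limma for mec1 minus WT, and without the G1 libraries, where 8.36% of all features were called higher in mec1, 5 passed, all higher in mec1: RPN13 (a ubiquitin receptor), BLM10 (an alternative cap of the core), UMP1, NAS2 and ADD66 (assembly chaperones, the last listed by its locus name YKL206C). With neighbours separated as well, that fit called 1 feature in all, so at most 1 such call among the pathway genes given here could remain. UMP1 was at 164, 184, 212 and 157 RPM in WT against 211, 264, 300 and 281 in mec1, with R30 highest in each strain.

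Of 19 genes for ubiquitin and for delivery to the proteasome, DSK2, HRD1 and DOA4 rose from G1 to HU in limma and none fell, against 9.09% of all features called. The fitted differences were 0.96 for DSK2 (adjusted p = 0.0354, limma), 0.88 for HRD1 (0.0127) and 0.70 for DOA4 (0.0380). DSK2, which encodes a shuttle receptor, was also called for R60 minus G1. UBI4, the polyubiquitin gene, was at 58.6, 170, 166 and 52.9 RPM in WT against 55.9, 167, 235 and 255 in mec1. Its WT R60 value was near that of G1 and its mec1 R60 value was the highest. At R60 the list was higher in mec1 by a median of 0.43 (17 of 19, against 61% of all features). Without the G1 libraries UBC4, UBC5 (conjugating enzymes) and DSK2 were called higher, 3 of 19 against 8.36% of all features.

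Of 7 genes for Rpn4 turnover or upstream regulators, none was called with all libraries, and RAD6, which encodes the conjugating enzyme that works with Ubr2 on Rpn4, was called higher in mec1 without the G1 libraries. That is 1 of 7 in a fit that called 8.36% of all features higher. YAP1, an activator of RPN4 under oxidative stress, was at 103, 117, 102 and 88.4 RPM in WT against 114, 142, 158 and 156 in mec1. Its later libraries were above all of WT in mec1, as for RPN4. The same held for RAD6, HSF1 and, by narrow margins, UBR2 and PDR3, but not for MUB1 and PDR1. The pattern is therefore not particular to YAP1. With WT G1 left aside, 22.3% of all features showed it. The oxidative stress genes TRX2, GPX2, TRR1 and TSA1 were highest in HU in both strains, with TRX2 at 340 RPM in G1 and 1335 RPM in HU in WT, and 381 and 1085 RPM in mec1. Their part in the values of RPN4 and the subunit genes was not tested.

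The 44 other tested genes whose promoter held an exact PACE were set beside the subunit genes. At R60 they were higher in mec1 by a median of 0.46. Of the 44, 35 were higher, against 61.2% of all tested genes with a promoter. The subunit genes with PACE had a median of 0.76 (n = 27), those without an exact match 0.59 (n = 5), and all tested genes with a promoter 0.10. At R30 in WT the difference of the 44 other genes from G1 had a median of 0.11, against 0.36 for the subunit genes with PACE and 0.33 for those without.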

How the data were processed

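Per the submitters' processing notes, reads were aligned with BWA (version not given in the sources used here) to sacCer3. The deposited table's title names log2 RPKM, but its values are linear: multiplied by the windows of its feature, each value was a whole number of steps (within 0.01 of a step, 100% of features checked). They were read as RPM from the authors, with an SD over windows that was not used. The window count was as modelled for 6308 of 6547 features (96.3%). The table's coordinates equalled R64 for 966 of 5814 features matched by name, so none is printed and sequences come from RefSeq R64 by gene symbol.

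Values were tested as log2(RPM + 1) with limma 3.58.1 in R 4.3.3 (strain and time additive, 3 residual degrees of freedom, mean-dependent prior variance, two-sided). The filter required 1 RPM in 2 or more libraries and removed 43 features. No test uses the spread between cultures. Differences between single libraries carry counting intervals from reads per window, and reads had no molecular identifiers.

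Neighbours were separated by non-negative least squares per chromosome. On simulated data the separation met neither of the criteria first set for it; it recovered gene totals well only for features that overlap no other and supply most of their own value, and poorly for the rest. The final criterion was narrowed to such features after those failures. Separated values over all features therefore include poorly resolved ones, and RPT1 overlaps YKL145W-A.

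The members and lists were chosen with earlier results of these data known. Genes with full values were RPN4, the largest and smallest HU minus G1 difference per role, members called in a contrast, and the 3 largest strain differences in either direction; PRE6, PUP1 and PRE2, and the pathway genes given with values, were added after their values were seen. The search allowing 1 different base, levels per kb and 4 settings that combine leaving out G1 with another choice were also added afterwards.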

Additional observations from a re-analysis of the deposited data

Results flagged for a closer look

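For 5 genes the mec1 and WT libraries lay on opposite sides of their G1 value with both counting intervals clear of 0. Opposite signs alone were more common, as 18 subunit genes at R60 were below G1 in WT and above it in mec1. The shares of all features with either pattern were not counted, so neither count can be called unusual. At R60, 46.5% of all features were above G1 in WT and 53.4% in mec1. The strain differences given below were not tested, because each strain and time has 1 library. From G1 to HU the strain difference was 1.65 for RPT2 (WT −0.61, mec1 1.04) and 1.34 for UBP6 (WT −0.61, mec1 0.72). From G1 to R30 it was 0.91 for RPN4 (WT −0.49, mec1 0.42). From G1 to R60 it was 1.51 for RPT2 (WT −0.22, mec1 1.29), 1.21 for UBP6 (WT −0.27, mec1 0.94) and 0.81 for RPN4 (WT −0.53, mec1 0.28). It was also 0.74 for RPN11 (WT −0.23, mec1 0.51) and 0.67 for RPN3 (WT −0.23, mec1 0.44).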

How the results depend on the processing

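No paired analysis was possible because the labels give no replicate numbers, beyond the fit itself, whose time term matches the strains by time. Of 260 values under an alternative setting, 226 stayed within the limits set: a count within 1.5 times, a median within the spread between libraries, and RPN4 in the same direction and on the same side of the threshold. The cause of the other changes was not tested. The subunit median for R60 minus HU, 0.02, changed sign to −0.04 with equal library medians, and that for mec1 minus WT, 0.34, was 0.18 to 0.42 when a time was left out. Features called were, with neighbours separated, 267 for HU minus G1, 21 for R30 minus HU, 13 for R60 minus HU, 43 for R60 minus G1 and 8 for mec1 minus WT. Without the R30 libraries they were 218 for HU minus G1, 4 for R60 minus HU, 53 for R60 minus G1 and 7 for mec1 minus WT, and without R60 the last was 7. Without G1 they were 28 for R30 minus HU, 32 for R60 minus HU and 669 for mec1 minus WT. With the 4 libraries compared alone they were 227 for HU minus G1, 17 for R30 minus HU and 194 for R60 minus HU. A constant prior variance in limma gave 3 for R30 minus HU and 32 for R60 minus HU, and equal library medians gave 115 for R60 minus HU. For HU minus G1, PRE5 (1 member) was called without the R60 libraries, and the subunit median was 0.25 with quantile normalization. RPN4 for R60 minus HU reversed from −0.04 to 0.13 with neighbours separated (adjusted p = 0.85, limma). For mec1 minus WT without G1, 8 members were called, against 0 with all libraries. With a further choice added, chosen after seeing the data, the features and members called were 1 and 0 (neighbours separated), 431 and 8 (quantile normalization), 613 and 6 (equal medians), and 541 and 6 (constant prior variance). RPN4 was called there at 0.68, 0.59 (quantile), 0.56 (equal medians) and 0.68 (constant prior), and its adjusted p over 16 settings ran from 0.0254 to 0.389 (limma). R60 minus R30 called 0 features in limma, with 1 member at an unadjusted p under 0.05, against 261 of all 6504 features. The depth of WT HU, the shallowest library, limits its intervals most.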
